A study of Mus musculus with 16 samples.

Results

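The 35 genes described here are cell cycle and proliferation genes, taken from the deposited liver count table by their gene symbols from a list of 35 mouse genes. The table holds 54752 genes, and 17833 of them, including all 35, had enough counts to be tested. The 35 were treated as 3 groups by their role: 4 genes of the G1/S transition (Ccnd1, Ccne1, Ccne2 and E2f1), 10 genes of DNA replication and nucleotide supply (Mcm2 to Mcm7, Rrm1, Rrm2, Tk1 and Tyms), and 21 genes of mitosis. RNA came from snap-frozen liver of 16 male Ercc1 d/- mice of 11 weeks, F1 hybrids of C57BL6J and FVBN, with 4 animals on each of 4 diets fed ad libitum from 8 weeks of age. The control animals ate the standard AIN93G diet. The high-protein diet had carbohydrate at 70% and protein at about 194%, the low-protein diet had protein at 70% and carbohydrate at about 112%, and the low-fat diet had fat at 70% and carbohydrate at about 112%, as the design text gives them. The diets were matched for energy. Every animal, controls included, carries the Ercc1 defect, so no comparison here is with a repair-proficient mouse.

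A dividing cell passes a fixed order of steps, and each step has its own transcripts. D and E cyclins with E2F factors open the G1/S transition, the MCM proteins form the helicase that unwinds DNA in S phase, and B cyclins with Cdk1, Aurora and Polo-like kinases drive mitosis. Most hepatocytes of an adult liver are quiescent, so these transcripts are scarce in whole liver, and the few cells that carry them can be hepatocytes or any other liver cell. Ercc1 encodes a subunit of an endonuclease that cuts damaged DNA in nucleotide excision repair, and its loss slows liver growth and leads to enlarged, polyploid hepatocyte nuclei.

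Library totals ran from 35243594 to 112789127 counts, the deepest being low-fat animal 2. Values below are depth-scaled counts (CPM) on library sizes scaled by TMM factors. Ercc1 itself stood at 1.27 to 2.01 CPM over the 16 libraries. Hepatocyte markers summed to between 68936 and 131620 CPM, with albumin (Alb) at 47750 CPM or more in every library. Control animal 4 stood farthest from the other animals of its diet, with an SD of 1.29 in log2 CPM over genes against 0.73, 0.76 and 1.01 for the other controls. Transcripts of kidney marker genes summed to 134, 71.6, 3448 and 266 CPM in control animals 1 to 4. They summed to between 770 and 2187 CPM in the low-fat group, and to 0.255 CPM in high-protein animal 1. For results that moved much when 1 library was left out, the value without it is given. In bulk tissue, fewer cells of a type and less RNA per cell cannot be told apart.

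The genes were expressed at low levels. Per kb of exon length, the mean level over the 16 libraries was highest for Ccnd1, the main D cyclin of liver, at 10.1 CPM per kb. Replication genes stood between 0.769 CPM per kb for Mcm2 and 3.58 CPM per kb for Tk1. The mitotic genes were lower, from 0.0588 CPM per kb for the checkpoint kinase Bub1 to 0.96 CPM per kb for Aurora kinase A (Aurka). Counts behind the weakest values were few. In control animal 4, Plk1 had 2 counts, Ccnb1 had 3 and Top2a had 4, and Bub1 had 0, which allows a level of up to 0.0921 CPM.

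None of the 35 genes passed an adjusted p of 0.05 in any comparison of the diets by edgeR's quasi-likelihood test, and neither did any other gene. The share of all 17833 genes called was 0.0% in each of the 6 pairs of diets and in the test of any difference among the 4 diets. DESeq2, run as an alternative, called 81 genes between high protein and low fat and 25 or fewer in each other pair. The smallest edgeR adjusted p among the 35 in the test of any difference was 0.695, for Tk1. Counts at an unadjusted p under 0.05 are therefore given as descriptions, beside the same count over all genes tested. In the test of any difference, 2 of the 35 genes (Tk1 and Cdk1) were under that limit, where 6.59% of all genes did. All statements below on higher and lower levels describe group means that did not pass the adjusted test.

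**Figure D1:**
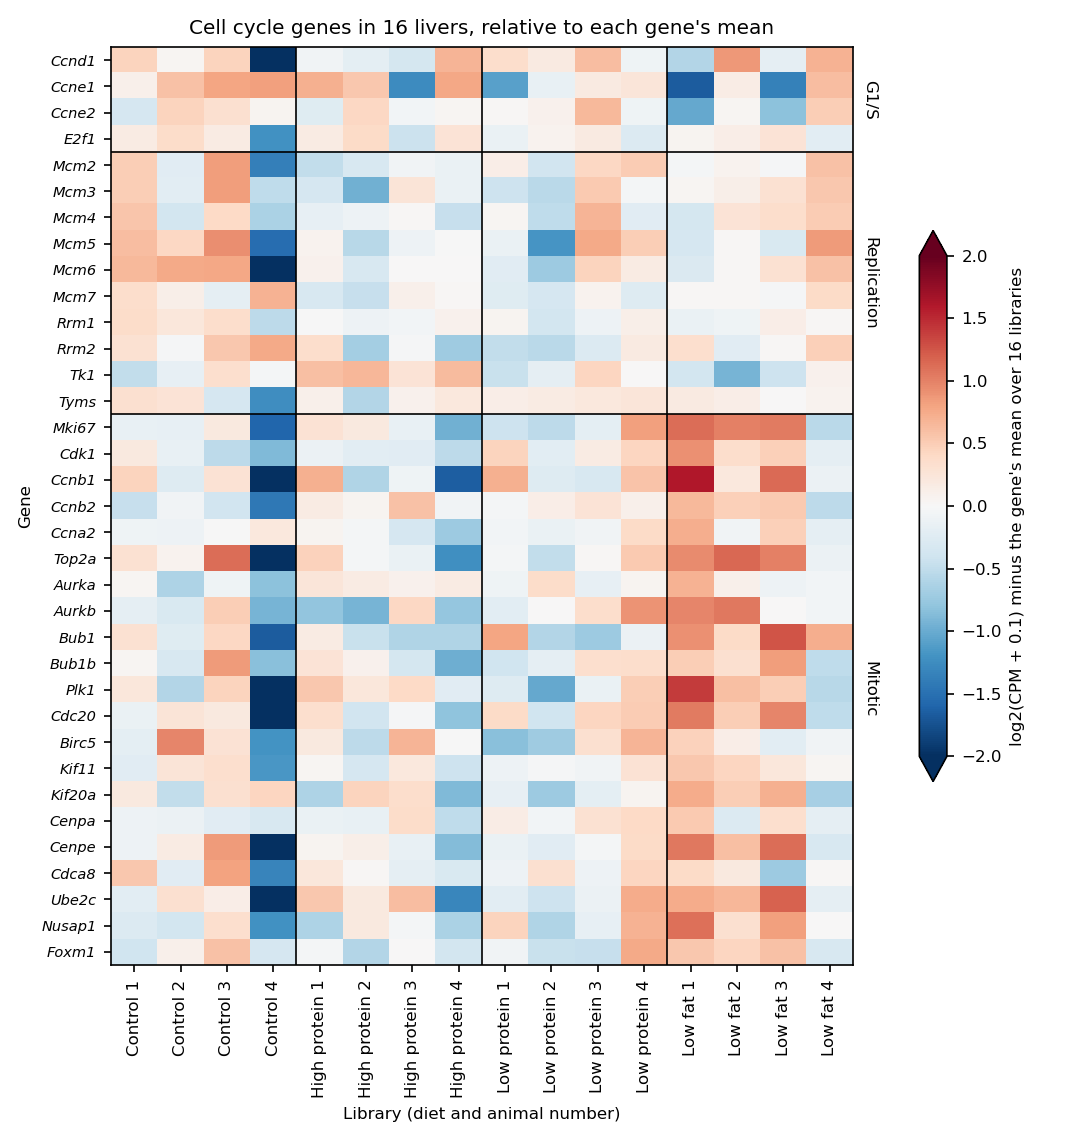
Each row is 1 of the 35 genes and each column 1 of the 16 libraries, grouped by diet; colour gives log2(CPM + 0.1) minus the gene's mean over the 16 libraries, with limits at -2 and 2. Low-fat animals 1, 2 and 3 are red over most mitotic genes, low-fat animal 4 is not, and control animal 4 is blue over most replication and mitotic genes.

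The mitotic genes had their highest mean in the low-fat group for 18 of the 21, and none had its lowest mean there. The lowest mean was in the high-protein group for 10 and in the control group for 9. As the map of all genes by library shows, the high values were those of 3 of the 4 low-fat animals. The median deviation of the 21 genes from their own means was 0.78, 0.47 and 0.63 on the log2 scale in low-fat animals 1, 2 and 3, and -0.18 in low-fat animal 4. Low-fat animal 1 held the highest value of all 16 libraries for 12 of the 21 genes. At the other end stood control animal 4, at -1.28, with the lowest value for 16 of the 21 genes, and high-protein animal 4, at -0.71. Outside the low-fat group, the highest median was that of low-protein animal 4, at 0.45, where 20 of the 21 genes were above their own mean.

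**Figure D2:**
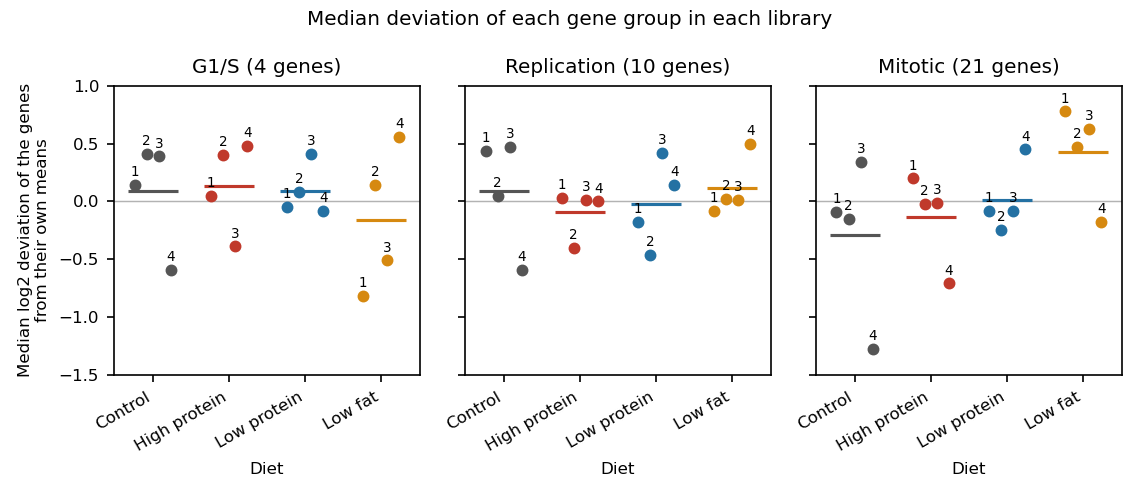
Each point is 1 animal (its number beside it) and gives the median, over the genes of a group, of the log2 deviation from each gene's mean; bars are the means of the 4 animals. For the mitotic genes 3 low-fat animals lie at 0.47 to 0.78 and control animal 4 at -1.28; for the G1/S genes low-fat animals 1 and 4 lie at opposite ends, at -0.82 and 0.56.

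Mki67 encodes the Ki-67 protein that coats mitotic chromosomes and is the usual marker of cycling cells. Its level was 7.80, 7.23, 7.40 and 2.41 CPM in low-fat animals 1 to 4. In the controls it was 3.19, 3.14, 4.10 and 1.11 CPM, in the high-protein group 4.38, 4.08, 3.19 and 1.78 CPM, and in the low-protein group 2.64, 2.45, 3.10 and 6.36 CPM. Thus 3 low-fat animals stood above every other library, low-protein animal 4 came next, and low-fat animal 4 lay among the lower libraries, so that the groups overlapped. The group means were 6.21 ± 2.54 CPM on low fat and 2.88 ± 1.26 CPM in controls (SD, n = 4). For each gene, the fold change given here is that of the pair of diets with its smallest unadjusted p. For Mki67 this was low fat against control, with a log2 fold change of 1.10 (SE 0.45), 2.15-fold higher, at an unadjusted p of 0.0254 and an edgeR adjusted p of 0.53. Without control animal 4 the log2 fold change was 0.81, and without low-fat animal 4 it was 1.35.

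Cdk1, the kinase that starts mitosis, stood at 3.21, 2.16, 2.35 and 1.46 CPM on low fat and at 1.92, 1.49, 1.13 and 0.859 CPM in controls. On high protein it was 1.53, 1.43, 1.41 and 1.13 CPM, and on low protein 2.30, 1.43, 1.88 and 2.27 CPM. The high-carbohydrate diets, low fat and low protein, thus had the higher means, and only low-fat animal 4 and low-protein animal 2 of those 8 lay inside the range of the high-protein animals. Its log2 fold change was 0.77 (SE 0.29) for low fat against control, with an edgeR adjusted p of 0.53, and 0.58 without control animal 4. Cyclin B2 (Ccnb2), a partner of Cdk1, was 1.49, 1.31, 1.35 and 0.609 CPM on low fat and 0.639, 0.869, 0.677 and 0.276 CPM in controls. The control mean, 0.615 CPM, was the lowest of the 4 diets and the low-fat mean, 1.19 CPM, the highest. The low-protein animals held 0.890, 1.01, 1.13 and 0.987 CPM and did not overlap the controls. The high-protein animals held 1.04, 0.953, 1.43 and 0.863 CPM. Low-fat animals 1 to 3 lay above every low-protein animal, and low-fat animal 4 lay inside the control range. The log2 fold change of Ccnb2 for low fat against control was 0.95 (SE 0.34), with an edgeR adjusted p of 0.53, and 0.68 without control animal 4.

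**Figure D3:**
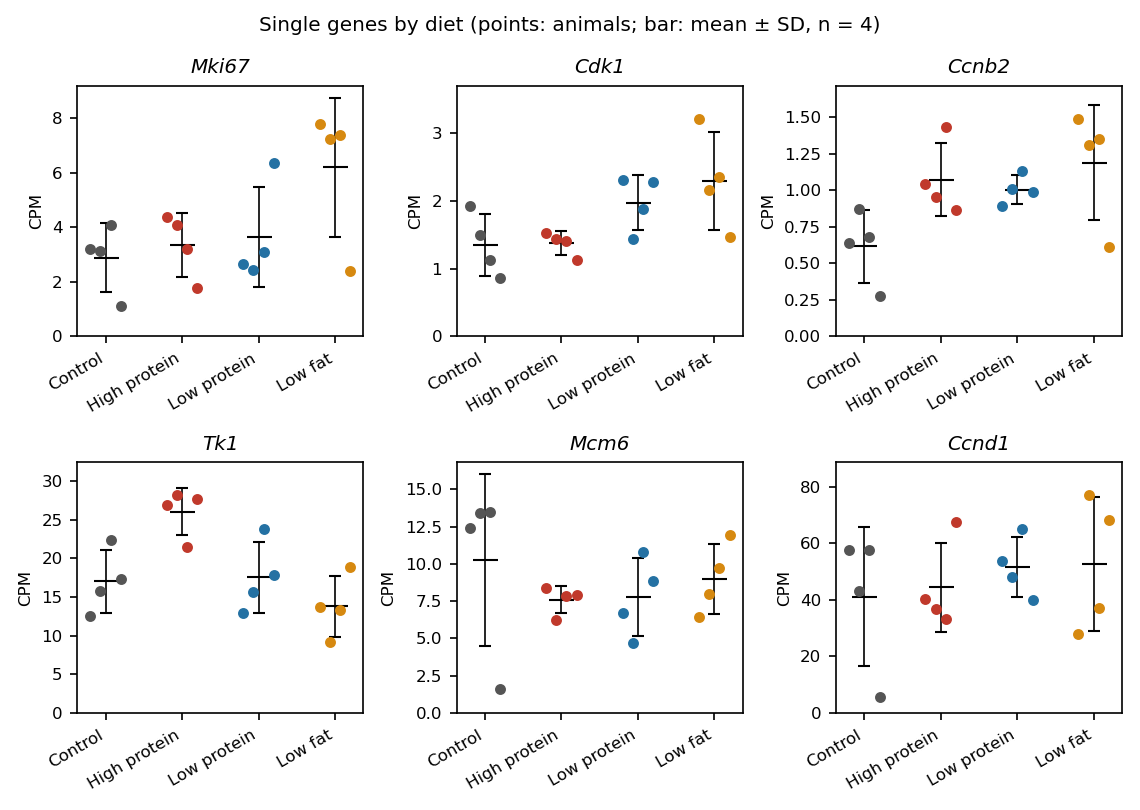
CPM of 6 genes by diet; points are animals, and bars give the mean ± SD of 4. Mki67, Cdk1 and Ccnb2 are mitotic, Tk1 and Mcm6 belong to replication and Ccnd1 to G1/S. For Tk1 the high-protein animals (21.5 to 28.2 CPM) lie above all low-fat animals (9.22 to 18.9 CPM), and for Mcm6 and Ccnd1 1 control animal lies far below the other 3.

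Over the whole mitotic group, 19 of 21 genes had a higher mean on low fat than in controls, with a median log2 fold change of 0.74, where the median of all genes tested was -0.02. At an unadjusted p under 0.05, 5 of the 35 genes differed in this comparison, where 9.22% of all genes did. All 5 were mitotic and higher on low fat (Mki67, Cdk1, Ccnb2, Aurka and Nusap1), a direction in which 3.09% of all genes lay. For none of the 35 did the 4 low-fat animals all stand apart from the 4 controls, where 2.59% of all genes did so. Without control animal 4 the count of 5 mitotic genes became 1 and the median log2 fold change was 0.37, with 19 of 21 genes still higher on low fat. Without low-fat animal 1 the count was also 1, and without low-fat animal 4 it was 6. With control animals 3 and 4 and high-protein animal 1 left out together, it was 1, again with 19 of 21 genes higher.

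Aurka, which matures the spindle poles, was 3.88, 2.54, 2.19 and 2.28 CPM on low fat and 2.44, 1.51, 2.22 and 1.29 CPM in controls. Its high-protein values of 2.81, 2.67, 2.52 and 2.67 CPM had an SD of 0.118 CPM and lay above all 4 controls. Nusap1, which bundles spindle microtubules, was 2.82, 1.59, 2.30 and 1.27 CPM on low fat and 1.02, 0.953, 1.62 and 0.491 CPM in controls, 1.94-fold higher in the fit. Polo-like kinase 1 (Plk1) and Ube2c, the ubiquitin-conjugating enzyme of the anaphase-promoting complex, had log2 fold changes of 0.95 (SE 0.58) and 0.98 (SE 0.57) in the same comparison. Cdc20, an activator of that complex, had 0.87 (SE 0.49) and was 3.15, 2.12, 3.03 and 1.01 CPM on low fat. With control animal 4 left out the log2 fold changes were 0.58 for Plk1, 0.58 for Ube2c and 0.50 for Cdc20, and that of Plk1 was 0.52 without low-fat animal 1. For Aurka the log2 fold change of low fat against control was 0.54 (SE 0.24), and 0.30 without low-fat animal 1. For Plk1, Ube2c and Cdc20 low-fat animal 4 was below the mean of the controls without animal 4.

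High protein against low fat was the comparison in which the most mitotic genes pointed 1 way. Here 20 of 21 had the lower mean on high protein, with a median log2 fold change of -0.59, against -0.02 over all genes tested. Of the 35 genes, 5 were under an unadjusted p of 0.05, where 9.08% of all genes were. Cdk1, Aurkb, Bub1 and Nusap1 were the 4 of them that were lower on high protein, where 4.41% of all genes were lower at that limit. The comparison uses no control library directly, but the spread estimate does: without control animal 4 the count of mitotic genes at an unadjusted p under 0.05 was 8, and without high-protein animal 4 or low-fat animal 1 it was 0. The median was -0.38 without high-protein animal 4. The groups stood fully apart for 3 of the 35 genes (Tk1, Mcm2 and Bub1), where 8.22% of all genes did.

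Bub1 and Aurkb, which act at the kinetochore and in the chromosomal passenger complex respectively, had the largest fold changes of the 35 genes in this comparison. Bub1 was 0.255, 0.132, 0.108 and 0.108 CPM on high protein and 0.495, 0.310, 0.652 and 0.423 CPM on low fat, with no overlap. Its log2 fold change was -1.59 (SE 0.68), with an edgeR adjusted p of 0.532, and the whole gene had 191 counts over the 16 libraries. Aurkb was 0.213, 0.185, 0.622 and 0.216 CPM on high protein and 0.965, 1.02, 0.442 and 0.423 CPM on low fat, with a log2 fold change of -1.22 (SE 0.50). High-protein animal 3 lay above 2 of the 4 low-fat animals for Aurkb, so these groups overlapped. Survivin (Birc5) and borealin (Cdca8), the other members of that complex in the list, had smallest unadjusted p-values of 0.699 and 0.58, at log2 fold changes of -0.18 (SE 0.44, low protein against control) and -0.22 (SE 0.39, high protein against control). Birc5 was 2.34, 1.38, 3.33 and 2.02 CPM on high protein and 2.84, 2.25, 1.75 and 1.93 CPM on low fat, so the groups lay within each other.

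For other genes whose smallest p was in this comparison the log2 fold changes were -1.11 (SE 0.64) for cyclin B1 (Ccnb1), -0.55 (SE 0.27) for cyclin A2 (Ccna2), -0.97 (SE 0.63) for topoisomerase II alpha (Top2a) and -0.95 (SE 0.56) for the kinetochore motor Cenpe. Those of the checkpoint kinase Bub1b, the spindle motor Kif11 and the transcription factor Foxm1, which drives many of these genes, were -0.59 (SE 0.43), -0.45 (SE 0.30) and -0.65 (SE 0.37). Their unadjusted p-values ran from 0.0571 for Ccna2 to 0.193 for Bub1b. Without low-fat animal 1 the log2 fold change was -0.70 for Ccnb1 and -0.33 for Ccna2, and without high-protein animal 4 it was -0.35 for Bub1b, whose value was -0.37 without low-fat animal 3; that of Ccnb1 was -1.67 without high-protein animal 1. Kif20a, a motor of the late mitotic spindle, had its smallest p in low fat against low protein, at a log2 fold change of 0.69 (SE 0.38). Of the 35 genes, 11 share exon bases with an antisense gene, and the strand setting of the counting is not given in the sources used here. The largest shares of exon length were 33.2% for Kif20a (with Cdc23, 9502 counts against 1214), 23.4% for Ccnd1 (with LTO1, 9505 against 36865) and 22.8% for Ube2c (with Tnnc2, 3 against 1200). Ccne2 shared 17.4% with Ints8 (11150 counts against 2473) and Ccna2 12.5% with Exosc9 (9062 against 998).

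**Figure D4:**
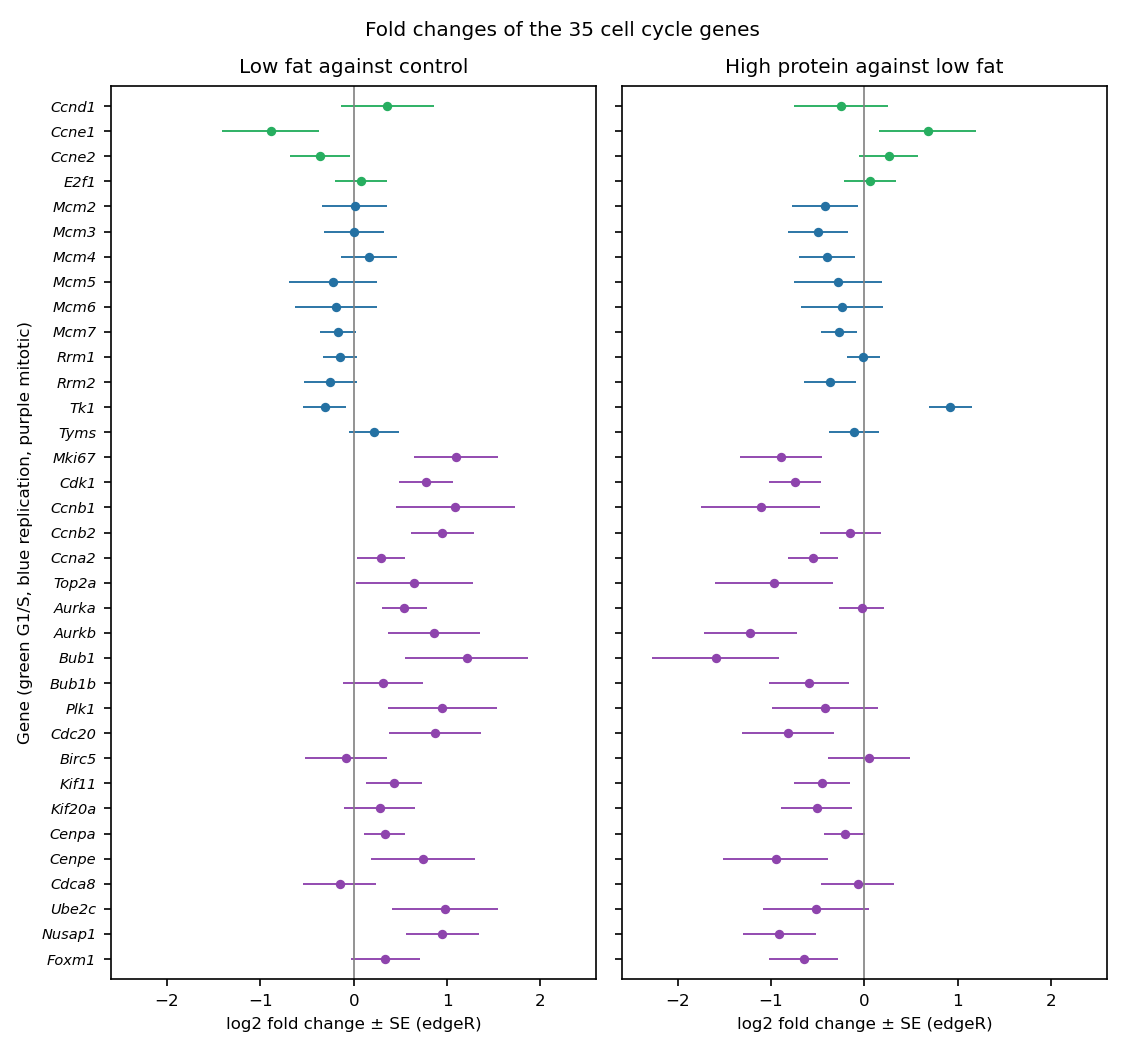
Points give the edgeR log2 fold change of each of the 35 genes and bars its SE, for low fat against control (left) and high protein against low fat (right); both panels use the same 4 low-fat libraries. Mitotic genes lie mostly right of 0 on the left (19 of 21) and left of 0 on the right (20 of 21), while Tk1 is the replication gene far to the right in the second panel, at 0.92.

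In the other pairs of diets the mitotic genes showed less. Low fat exceeded low protein in 19 of 21 (median log2 fold change 0.36, and 0.61 without low-protein animal 4), and none of the 35 was under an unadjusted p of 0.05 (2.38% of all genes were) or stood fully apart (4.49% of all genes did). Low protein exceeded control in 14 of 21 (median 0.12). This depended on the controls: it was 19 of 21 without control animal 3 (median 0.46), 10 of 21 without control animal 4 (median -0.05) and 19 of 21 with the replicate number as a block. In that comparison 2 of the 35 genes were under an unadjusted p of 0.05, both of the replication group, where 7.08% of all genes were. Ccnb2 and the centromeric histone Cenpa were the 2 whose groups stood apart, where 2.48% of all genes did so. Cenpa was 5.31, 4.58, 5.96 and 6.30 CPM on low protein and 4.47, 4.40, 4.06 and 3.81 CPM in controls, with a log2 fold change of 0.40 (SE 0.22) and an edgeR adjusted p of 0.682. High protein was below low protein in 15 of 21 and below control in 12 of 21, with medians of -0.21 and -0.02. Against low protein the median was -0.02 without low-protein animal 4 and -0.03 without high-protein animal 4. Against control the direction turned with the library left out: without control animal 3, 16 of 21 were higher on high protein (median 0.20), and without control animal 4, 16 of 21 were lower (median -0.27).

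Markers of other cell types differed between diets too, in part in the same direction. Marker genes of T and NK cells summed to 3.35 to 6.10 CPM in the low-fat group and to 0.767 to 3.05 CPM in controls, with the lowest value in control animal 4. B cell markers summed to 4.20 to 5.72 CPM on low fat, 2.24 to 3.60 CPM on high protein and 2.67 to 5.02 CPM in controls. For Kupffer cells and macrophages the ranges were 195 to 319 CPM on low fat, 172 to 232 CPM on high protein and 148 to 204 CPM in controls. All members of these 3 lists were detected in at least 1 library of each group. Low-fat animal 4, whose mitotic genes were low, had 3.62 CPM of T and NK cell and 5.72 CPM of B cell markers, inside or at the top of the low-fat range. On low protein, where 19 of 21 mitotic genes had lower means than on low fat, B cell markers spanned the low-fat range, at 3.59 to 6.57 CPM, and T and NK cell markers summed to 2.12 to 4.96 CPM. On high protein T and NK cell markers summed to 2.49 to 3.89 CPM, with the highest value in animal 4, whose mitotic genes were low. For Kupffer cells and macrophages, low-fat animal 4 (195 CPM) and control animal 4 (148 CPM) were the lowest of their diets. Low-protein animal 4, whose mitotic genes were high, was the highest of its diet for that list (182 to 269 CPM) and for T and NK cells. High-protein animal 4, at 211 CPM, lay inside the range of its diet. The part of these cells in the mitotic levels was not tested. Of the myeloid progenitor markers, Ctsg and Ms4a3 had no counts in any of the 16 libraries, Mpo had none in 15, and the summed list stayed at 2.03 CPM or less. Erythroid markers summed to 291 to 604 CPM on low fat and 174 to 504 CPM in controls. They reached 323 to 1106 CPM on high protein and 306 to 499 CPM on low protein. Endothelial (137 to 155 CPM), stellate (251 to 280 CPM) and cholangiocyte markers (49.9 to 109 CPM) on low fat lay inside the control ranges. Those were 108 to 256, 240 to 315 and 31.9 to 137 CPM. With the log2 of the summed kidney markers as a covariate, 20 of 21 mitotic genes were higher on low fat than in controls. All 21 were lower on high protein than on low fat. On that scale high-protein animal 1 (0.255 CPM) lay far below the next library, control animal 2 (71.6 CPM). The slope can rest largely on that animal, so the fit cannot show how kidney transcripts bear on the other animals.

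Promoters of several of these genes are shown because mitotic and replication genes carry different known elements. A link between these elements and the diets was not tested. Genes expressed in G2 and mitosis often hold a CCAAT box together with a cell cycle homology region, TTTGAA or TTTAAA, whereas S phase genes often hold an E2F element, searched here as TTTNNCGC. RefSeq windows of build GRCm38.p6, from 250 bases before to 50 bases after the first listed start, were found for 28 of the 35 genes and searched on both strands. CCAAT was in 15 of 17 mitotic windows (88.2%) and 7 of 9 replication windows (77.8%), against 37.4% of all 32544 windows. TTTGAA was in 12 of 17 mitotic windows (70.6%) and 1 of 9 replication windows (11.1%), against 17.8% of all. CCAAT together with TTTGAA or TTTAAA was in 14 of 17 mitotic (82.4%) and 3 of 9 replication windows, against 10.7% of all. TTTNNCGC was in 5 of 9 replication windows (55.6%) and in 1 of 17 mitotic windows, that of Cdk1, against 5.2% of all. The windows were not matched for base composition, and a match is a string of letters, not a measured site. The 150 bases below end before both the RefSeq start and the outermost start of the deposited gene model. They are given 5′ to 3′ on the gene's strand, the minus strand for all 7 genes, with matches of the 4 motifs on either strand in capitals (ATTGG is CCAAT on the other strand). They lie at chr7:135716380-135716529 (Mki67), chr10:69352939-69353088 (Cdk1), chr9:70421555-70421704 (Ccnb2), chr2:172370571-172370720 (Aurka), chr4:118437353-118437502 (Cdc20), chr1:128359706-128359855 (Mcm6) and chr11:117826093-117826242 (Tk1).
Mki67: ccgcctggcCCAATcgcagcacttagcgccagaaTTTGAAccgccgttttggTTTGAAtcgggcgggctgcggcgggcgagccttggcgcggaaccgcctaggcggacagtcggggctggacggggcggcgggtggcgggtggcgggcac
Cdk1: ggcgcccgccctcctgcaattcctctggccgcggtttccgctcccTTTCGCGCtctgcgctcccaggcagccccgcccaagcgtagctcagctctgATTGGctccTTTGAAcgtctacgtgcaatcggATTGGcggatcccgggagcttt
Ccnb2: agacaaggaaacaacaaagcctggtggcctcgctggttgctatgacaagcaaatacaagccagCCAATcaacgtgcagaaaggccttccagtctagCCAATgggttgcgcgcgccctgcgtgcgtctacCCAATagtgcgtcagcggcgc
Aurka: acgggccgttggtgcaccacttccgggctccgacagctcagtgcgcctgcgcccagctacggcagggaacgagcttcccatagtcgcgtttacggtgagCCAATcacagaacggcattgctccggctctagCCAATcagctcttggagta
Cdc20: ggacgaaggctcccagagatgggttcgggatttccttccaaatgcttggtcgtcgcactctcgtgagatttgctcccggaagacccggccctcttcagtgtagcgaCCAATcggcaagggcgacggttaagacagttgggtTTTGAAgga
Mcm6: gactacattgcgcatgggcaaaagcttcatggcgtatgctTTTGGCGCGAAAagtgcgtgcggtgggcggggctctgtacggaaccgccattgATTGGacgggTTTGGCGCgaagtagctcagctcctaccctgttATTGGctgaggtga
Tk1: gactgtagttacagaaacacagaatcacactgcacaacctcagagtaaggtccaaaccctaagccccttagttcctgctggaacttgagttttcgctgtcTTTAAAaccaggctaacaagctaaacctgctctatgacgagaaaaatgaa
In these stretches Mki67, Ccnb2, Aurka and Cdc20 show CCAAT boxes as CCAAT, and Cdk1 shows them as ATTGG. Mki67, Cdk1 and Cdc20 also show TTTGAA. Mcm6 shows overlapping TTTNNCGC matches on both strands beside ATTGG, and Tk1 shows only 1 TTTAAA.

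The replication genes differed in part from the mitotic genes in their order over the diets. Their highest mean was in the control group for 5 of the 10. Their lowest was in the high-protein group for 5, the group that also held the lowest mean of 10 of the 21 mitotic genes. Against control, 8 of 10 were lower on high protein, with a median log2 fold change of -0.42, where the median of all genes tested was -0.06. In that comparison 4 of all 35 genes were under an unadjusted p of 0.05, where 6.22% of all genes were: Mcm7 and Rrm2 were lower on high protein, and Tk1 and Ccnb2 were higher. Aurka was the 1 gene of the 35 with groups fully apart, where 1.96% of all genes were. Without control animal 4, 9 of 10 replication genes were lower on high protein, and without control animal 3 the median was -0.16. On low protein 7 of the 10 were lower than in controls, with a median of -0.21, and on low fat 6 were lower, with a median of -0.16. Without control animal 4 all 10 were lower on low fat than in controls, whereas without control animal 3 only 5 of 10 were lower on low fat and 5 of 10 on low protein, with medians of 0.01 and 0.00. High protein was below low fat in 9 of 10, with a median of -0.27, and -0.12 without low-fat animal 4.

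Mcm2 to Mcm7 encode the subunits of the replicative helicase. Mcm6 was 12.4, 13.4, 13.5 and 1.6 CPM in controls, so that control animal 4 lay below every other library. It was 8.37, 6.25, 7.87 and 7.91 CPM on high protein, 6.70, 4.72, 10.8 and 8.82 CPM on low protein and 6.41, 7.97, 9.71 and 11.9 CPM on low fat. The other 3 controls therefore stood above all 12 animals on the changed diets, while the control mean of 10.2 ± 5.77 CPM (SD, n = 4) carried the low animal. Its log2 fold change for high protein against control was -0.43 (SE 0.45), and -0.79 without control animal 4. Mcm5 gave -0.50 (SE 0.47) in the same comparison, with -0.82 without control animal 4 and -0.24 without control animal 3. Mcm7 differed from them in control animal 4, where its 24.2 CPM was the highest of the 16 libraries. Its values were 19.1, 16.1, 13.1 and 24.2 CPM in controls and 12.6, 11.8, 15.7 and 12.4 CPM on low protein, with a log2 fold change of -0.47 (SE 0.19), an unadjusted p of 0.0244 and an edgeR adjusted p of 0.682, and -0.31 without control animal 4. Antisense genes share 7.25% (Ap4m1) and 1.45% (Cops6) of the exon length of Mcm7.

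Mcm2 was 3.55, 4.02, 4.82 and 4.61 CPM on high protein and 4.90, 5.31, 4.96 and 7.62 CPM on low fat, without overlap. Its smallest p was in high protein against low protein, with a log2 fold change of -0.46 (SE 0.35) and an unadjusted p of 0.216. Mcm3 and Mcm4 had their smallest p in high protein against low fat, at -0.50 (SE 0.32) and -0.40 (SE 0.30), and Mcm3 was at -0.31 without high-protein animal 2. Across the low-fat animals the 6 Mcm genes were highest in animal 4, the animal with the lowest mitotic values: 10 of the 10 replication genes were above their own mean in it.

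Rrm1 and Rrm2, the subunits of the ribonucleotide reductase that makes deoxynucleotides, were both lower on low protein than in controls, by log2 fold changes of -0.21 (SE 0.18) and -0.69 (SE 0.28). With 1 animal left out in turn that of Rrm1 lay between -0.40 (without control animal 4) and -0.12. Rrm2, the subunit limiting in S phase, was 4.18, 3.33, 4.93 and 5.74 CPM in controls and 2.38, 2.29, 2.76 and 3.84 CPM on low protein, with an overlap of 1 animal, an unadjusted p of 0.0255 and an edgeR adjusted p of 0.682. It was also among the replication genes whose highest library was control animal 4. Thymidylate synthase (Tyms), which makes thymidylate anew, stayed between 5.40 and 6.41 CPM in all 8 animals on low protein and low fat. It was 6.79, 6.56, 4.27 and 2.21 CPM in controls, with a log2 fold change of 0.32 (SE 0.27) for low protein against control that was 0.05 without control animal 4.

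Tk1 encodes thymidine kinase, which salvages thymidine in S phase, and it was the replication gene with its highest mean on high protein. Its level was 26.9, 28.2, 21.5 and 27.7 CPM on high protein. In controls it was 12.6, 15.8, 22.4 and 17.3 CPM, on low protein 13.0, 15.7, 23.8 and 17.8 CPM, and on low fat 13.7, 9.22, 13.3 and 18.9 CPM. High-protein animals stood above every low-fat animal, and only control animal 3 and low-protein animal 3 exceeded the lowest high-protein animal. The means were 26.1 ± 3.08 CPM on high protein and 13.8 ± 3.98 CPM on low fat (SD, n = 4). The log2 fold change was 0.92 (SE 0.23), 1.90-fold higher on high protein, with an unadjusted p of 0.00104 and an edgeR adjusted p of 0.362. DESeq2 gave it an adjusted p of 0.0482 for the same pair, the 1 case in which any of the 35 genes was called under any alternative tried. Leaving out each animal in turn kept the log2 fold change between 0.77 and 1.13. In high protein against low protein Tk1 was also the 1 gene of the 35 under an unadjusted p of 0.05, where 5.17% of all genes were, and none of the 35 stood fully apart, where 6.61% of all genes did. Of the exon length of Tk1, 1.6% overlaps the antisense gene Afmid, which had 26392 counts over all libraries against 12736 for Tk1.

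The 4 G1/S genes shared no order over the diets: each diet had the highest mean of 1 of them. Ccnd1, which couples growth signals to the cycle, was 57.8, 43.3, 57.8 and 5.77 CPM in controls and 28.1, 77.1, 37.3 and 68.4 CPM on low fat. It was 40.2, 36.8, 33.2 and 67.5 CPM on high protein and 53.8, 48.1, 65.2 and 40.0 CPM on low protein. All 4 diets overlapped, and the log2 fold change of 0.36 (SE 0.50) for low fat against control turned to -0.04 without control animal 4. E2f1, a factor that switches on S phase genes, lay between 4.09 and 7.23 CPM in all libraries but control animal 4, where it was 2.33 CPM. Its smallest unadjusted p was 0.574.

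The E cyclins Ccne1 and Ccne2, which activate Cdk2 at the start of S phase, varied widely within the low-fat group. Ccne1 was 0.548, 2.16, 0.698 and 3.02 CPM and Ccne2 was 1.56, 3.40, 1.82 and 4.66 CPM in low-fat animals 1 to 4. Animals 1 and 3 were thus low for both and animal 4 was high, whereas for the mitotic genes animals 1 and 3 were the highest. Over all diets Ccne1 was under 1 CPM in 4 libraries, at 0.548 to 0.863 CPM (low-fat animals 1 and 3, high-protein animal 3 and low-protein animal 1), and at 1.74 CPM or more in the other 12. Its log2 fold change was -0.89 (SE 0.52) for low fat against control, with an edgeR adjusted p of 0.59, and -1.39 without low-fat animal 4. That of Ccne2 was -0.40 (SE 0.32) for low fat against low protein, and between -0.75 and -0.21 with 1 animal left out in turn.

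Further genes of the same steps were taken from 4 lists, from which up to 3 genes with the smallest p in the test of any difference are named. None of them passed. Among 30 other mitotic genes, 23 were higher on low fat than in controls (median log2 fold change 0.34) and 26 were lower on high protein than on low fat (median -0.54). The first count was 17 without control animal 4 (median 0.07), and without high-protein animal 4 the second median was -0.32. Of all genes tested, 47.6% were higher on low fat than in controls, and 47.0% were higher on high protein than on low fat. Cenpf, a kinetochore protein, was 1.54, 1.78, 2.14 and 0.423 CPM on low fat and 0.639, 0.616, 0.583 and 0.0307 CPM in controls, so that low-fat animal 4 again lay apart from the other 3. Racgap1, which acts in cytokinesis, was 2.48, 1.51, 1.82 and 0.556 CPM on low fat and 0.531, 1.06, 0.541 and 0.755 CPM on high protein. The chromosome motor Kif4 was lower on low protein (0.366 to 0.493 CPM) than in controls (0.581 to 0.952 CPM), with no overlap. Of the exon length of Kif4, 15.1% is shared with the antisense gene Pdzd11, which had 9002 counts over all libraries against 441 for Kif4.

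Of 25 other replication genes, 18 were lower than in controls on each of the 3 changed diets, and 14 to 23 were with control animal 3 or 4 left out. Of all 17833 genes, 10398, 9703 and 9341 were lower than in controls on high protein, low protein and low fat. Rfc3, a subunit of the clamp loader, was 4.59, 5.05, 4.60 and 4.61 CPM on high protein and between 5.55 and 7.35 CPM in all 12 other libraries. Against control the log2 fold change of Rfc3 was -0.45 (SE 0.13), with an unadjusted p of 0.00449 and an edgeR adjusted p of 0.762. The histone chaperone subunit Chaf1b was 6.08 CPM in control animal 4 and 0.433 to 2.03 CPM elsewhere. Geminin (Gmnn), which blocks a second round of replication, was 4.85, 5.23, 4.12 and 6.40 CPM on low fat and 5.84, 7.68, 7.01 and 10.3 CPM in controls.

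Of 12 other G1/S genes, 8 were higher on high protein than in controls, 9 on low protein and 7 on low fat. Of all genes tested, 41.7%, 45.6% and 47.6% were higher on these diets. The G1/S counts were 7, 6 and 5 without control animal 4. The kinase Cdk2 lay between 7.40 and 12.4 CPM, and the E2F partner Tfdp1 between 14.9 and 23.9 CPM. Myc, the growth factor response gene, spread most: 71.2, 16.2, 66.6 and 314 CPM in controls, 35, 42.6, 8.98 and 22.1 CPM on high protein, 15.2, 4.96, 17.9 and 3.40 CPM on low protein and 6.00, 4.39, 58.1 and 12.7 CPM on low fat. Low protein against control gave Myc a log2 fold change of -3.49 (SE 0.97), with an unadjusted p of 0.00257 and an edgeR adjusted p of 0.682, and -2.32 without control animal 4.

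Of 17 inhibitors and exit genes, 15 had enough counts to be tested (Cdkn2a and Cdkn2b did not), and 10 or 11 of the 15 were lower than in controls on each changed diet. Of all 17833 genes, 10398, 9703 and 9341 were lower on high protein, low protein and low fat. The inhibitor counts rested on control animal 4: without it 16 genes were tested, and 8, 7 and 7 were lower than in controls on these diets. Cdkn1a encodes p21, the inhibitor of cyclin-dependent kinases that p53 induces after DNA damage. It was 22.3, 10.6, 8.89 and 554 CPM in controls, and Btg2, an antiproliferative gene also induced by p53, was 15.5, 25.5, 23.3 and 505 CPM. Control animal 4 thus held the highest value of both over all 16 libraries, and it was the same library in which most mitotic genes, Mcm6 and Ccnd1 were lowest. Other cycle genes were highest of the 16 libraries in it: Ccne1 (3.5 CPM), Rrm2 (5.74 CPM), Mcm7 (24.2 CPM), Pcna (40.0 CPM) and Gmnn (10.3 CPM). A link between these levels was not tested. Of the other 3 controls, animals 2 and 3 lay below the low-protein range of Cdkn1a (14.8 to 17.8 CPM) and animal 1 above it. The log2 fold change of Cdkn1a for low protein against control was -3.16 (SE 1.07), with an edgeR adjusted p of 0.682. The direction turned without control animal 4, to a log2 fold change of 0.25. E2f8, a repressor of the E2F family linked to polyploidy of hepatocytes, was 5.06, 6.94, 5.26 and 12.4 CPM on low fat. It was 1.78, 2.62, 1.74 and 3.29 CPM on low protein and 2.13, 3.41, 4.00 and 0.998 CPM on high protein, both below every low-fat animal. Its log2 fold change was 1.65 (SE 0.59) for low fat against low protein, with an unadjusted p of 0.0130 and an edgeR adjusted p of 1.0. The controls, at 6.68, 4.82, 1.67 and 0.583 CPM, overlapped all 3 other diets. Of the exon length of E2f8, 11.2% is shared with the antisense gene Gm2788.

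**Figure D5:**
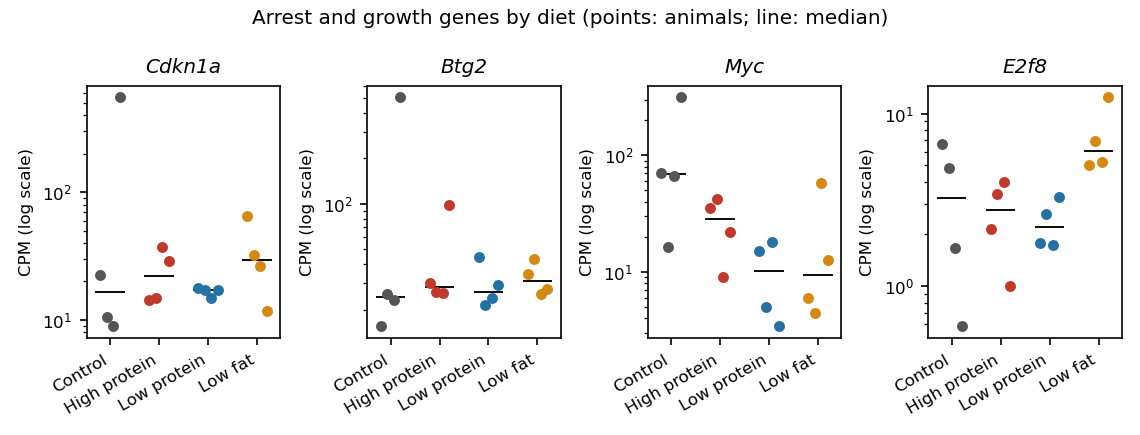
CPM on a log axis of Cdkn1a, Btg2, Myc and E2f8 by diet; points are animals and lines medians of 4. Control animal 4 holds the highest Cdkn1a (554 CPM), Btg2 (505 CPM) and Myc (314 CPM), and for E2f8 all low-fat animals (5.06 to 12.4 CPM) lie above all low-protein and high-protein animals.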

How the data were processed

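RNA-seq libraries of 16 livers were grouped by the diet and animal number in the sample titles. Raw counts per gene, as whole numbers, were deposited by the authors together with exon length. The submitters' processing notes list STAR 2.7.0f, Trimmomatic 0.39, featureCounts of Subread 1.6.4, build GRCm38.p6 and edgeR 3.32.1, and the strand and annotation settings were not given in the sources used here. Gene symbols came from a table of identifiers that matched 54723 of 54752 genes.

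Counts of the 17833 genes passing filterByExpr were scaled with TMM factors and fitted in edgeR 4.0.16 (R 4.3.3) with the quasi-likelihood model, 4 diet means and 12 residual degrees of freedom. Each of the 6 pairs of diets, and any difference among the diets, was tested two-sided with Benjamini-Hochberg adjustment over all genes at 0.05. The SE of a fold change was back-calculated, as the absolute log2 fold change divided by the square root of the F statistic of its test. The fit was also run on counts simulated from its own estimates of spread, with known fold changes. Those counts held no animals that stand apart, so the run cannot show how the fit handles such animals. Library totals of 35243594 to 112789127 counts set the precision, and genes with few counts carry large standard errors. Whether animals shared a litter or cage is not in the labels, and the p-values reflect only how much these samples vary.

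The members, the gene lists and the tests were chosen with earlier results of these data known. For each member the text gives the fold change of the pair with its smallest unadjusted p; from each other list it names up to 3 genes with the smallest p in the test of any difference, and Cdkn1a. Alternatives were RLE factors, DESeq2 1.42.0, limma 3.58.1 (voom with sample quality weights), 2 other count filters, only the 2 diets compared, a replicate block, a kidney marker covariate, each library left out in turn and, chosen after seeing the data, 3 libraries left out together.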

Additional observations from a re-analysis of the deposited data

Results flagged for a closer look

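Within each diet, the highest or lowest of the 4 animals was set against the other 3 for the 35 genes and the other genes shown by animal. Of these 196 combinations of gene and diet, 16 stood apart by Dixon's test at the 95% level. Chance gives about 1 in 20 for independent, normally distributed values. Many of the other genes had been named for small p-values in these data, and genes vary together within a library, so that rate is no benchmark here. The tested values are in CPM. Control animal 4 stood apart for 4 genes: Mcm6 at 1.6 (other controls 12.4 to 13.5), Cenpf at 0.0307 (0.583 to 0.639), Cdkn1a at 554 (8.89 to 22.3) and Btg2 at 505 (15.5 to 25.5). Low-fat animal 4 stood apart for 3 genes, low for Mki67 at 2.41 (other low-fat animals 7.23 to 7.80) and high for Mcm2 at 7.62 (4.90 to 5.31) and Mcm7 at 19.5 (14.6 to 15.2). Low-protein animal 4 was high for 3 mitotic genes: Mki67 at 6.36 (2.45 to 3.10), Ccna2 at 1.81 (1.23 to 1.31) and Kif4 at 0.493 (0.366 to 0.384). Among the other low-protein and low-fat animals, Cdc20 was 1.10 in low-protein animal 2 (1.96 to 2.14) and Myc was 58.1 in low-fat animal 3 (4.39 to 12.7). In the high-protein group Bub1 was 0.255 in animal 1 (0.108 to 0.132), Rfc3 was 5.05 in animal 2 (4.59 to 4.61), Aurkb was 0.622 in animal 3 (0.185 to 0.216) and Btg2 was 98.3 in animal 4 (25.9 to 30.2).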

How the results depend on the processing

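The main test called 0 genes in every comparison, and these counts are of all genes. DESeq2 called 1 gene for high protein against control, 10 for low protein against control, 4 for low fat against control, 79 for any difference, 25 between high and low protein and 81 between high protein and low fat. Leaving out each library in turn gave 0 to 109 genes for low fat against control (109 without control 3, none of them a cell cycle member), 0 to 2 between high and low protein (2 without high-protein 3), 0 to 19 between high protein and low fat (19 without control 4, 1 without high-protein 3) and 0 to 1 for any difference. With the 3 libraries out together there were 625 for low fat against control and 298 for any difference. Fitting only the 2 diets gave 16, and limma-voom 1, between high protein and low fat. Tk1 was the 1 member called, by DESeq2.

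Each member's fold change was followed only in the pair of diets with its smallest p. There 864 values under an alternative kept direction and side of the threshold and 7 changed sign. No member was called in the main test, so keeping its side of the threshold means only staying uncalled. The pairs were picked for a small p, so these counts do not show how directions hold in the other pairs. For high protein against control, 9 of 21 mitotic genes were higher in the main fit, 16 without control 3 and 5 without control 4. Among the followed pairs, Ccnd1 for low fat against control was -0.01 with limma-voom and -0.04 without control 4. Tyms for low protein against control was -0.11 with the 3 libraries out. Birc5 for low protein against control was 0.26, 0.03 and 0.01 without control 2, low-protein 1 and low-protein 2. Cdca8 for high protein against control was 0.12 without control 3. Leaving out each library in turn gave -0.04 to 0.56 for Ccnd1, -0.52 to 0.26 for Birc5 and -0.51 to 0.12 for Cdca8. The cause was not tested. The replicate numbers gave same-number correlations of -0.2 to 0.3 (median 0.04, other numbers -0.01), and 6 of 16 libraries correlated best with their own number. Such low correlations show no strong pairing by number but cannot exclude a shared litter or cage. The fit with the replicate block called 0 genes in every comparison.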
